A study of Mus musculus with 4 samples.

Results

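The genes described here are 42 genes of DNA replication and of entry into S phase, measured in CD4+ T cells of mice with and without the transcription factor Irf4. They were chosen by symbol from the roles of their products, from origin licensing to the E2F transcription factors. Each was read through the brightest array probe whose accession matched its symbol. All 42 were among the 20505 genes or unnamed transcripts tested, of 45526 on the array, and all were well above background on all 4 arrays. Naive CD4+ T cells were sorted as CD62L+ and CD44- from the spleens of male C57BL/6 mice, either wild type or Irf4-/-. Cells of both genotypes were activated with antibody to CD3 at 1 µg per ml in the presence of mitomycin C-treated antigen-presenting cells of the same strain. On day 2, living CD4+ cells were purified by a second sort, and total RNA from them was hybridised to one-colour arrays, 2 per genotype. The labels also hold a culture protocol with shorter times, and the day in the titles was followed. The design text mentions 2 independent experiments, but the sources used here do not give the Irf4 allele, the age of the mice, how many were pooled or which arrays share an experiment. The p-values therefore measure the spread between these arrays, some of which may be technical.

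A resting T cell is not replicating its DNA, and signals from the antigen receptor and from cytokines drive it into the cell cycle. In G1 phase the origin recognition complex, Cdc6 and Cdt1 load the Mcm helicase onto chromatin. Cyclin-dependent kinases and the Dbf4-dependent kinase Cdc7 then switch the helicase on with Cdc45 and the GINS complex, and primase, polymerases and the Pcna clamp copy the strands. E2F transcription factors, held back by the retinoblastoma family until cyclins D and E act, drive transcription of many of these genes. Irf4 is induced through the antigen receptor and is known to support the expansion of activated T cells. The comparison of genotypes asks which of these transcripts differed in activated helper T cells that lacked Irf4.

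Levels below are log2 signals relative to the 75th percentile of the array, and differences are Irf4-/- minus wild type on the log2 scale, with limma's standard error (SE). Each probe has its own response, so levels are compared between arrays and not between genes. Across the genes tested, which are not independent of each other, the correlation was 0.992 between the wild-type arrays, 0.989 between the Irf4-/- arrays and 0.978 to 0.986 between genotypes. Signal for Irf4 itself was 5.03 and 4.74 in wild type and 4.23 and 4.04 in Irf4-/-, a difference of -0.75 ± 0.20 (SE) that missed the threshold (limma, adjusted p = 0.231). As the mean of all Irf4 probes the difference was -0.56. The position of these probes relative to the deletion is unknown here, and their signal therefore does not check the genotype. All 9 T-cell markers matched on the array, among them Cd4 and Cd3e, were well above background on every array. Summed over the markers, linear signal relative to the 75th percentile was 1510 and 1380 in wild type and 1490 and 1420 in Irf4-/- for T cells. The sum was 2.76 and 1.43 against 5.08 and 1.98 for 8 B-cell markers, of which 6 had a positive difference. For 4 NK-cell markers it was 2.70 and 1.43 against 6.90 and 3.99. The defining Ncr1 and Klre1 were below background on all arrays. Nearly all of the NK-cell sum came from 1 gene, Eomes, the only NK-cell marker tested. Its log2 signal was 1.40 and 0.47 in wild type and 2.77 and 1.98 in Irf4-/-. For 8 myeloid and dendritic markers it was 11.7 and 12.5 against 11.1 and 10.3, with Adgre1, Itgax and Lyz2 below background on all arrays. For the CD8 genes Cd8a and Cd8b1 it was 8.77 and 9.29 against 4.76 and 4.45, and for 5 erythroid and platelet markers 0.490 and 0.427 against 0.528 and 1.34. The part of these marker differences in the results below was not tested.

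None of the 42 replication and G1/S genes passed the test between genotypes (limma, adjusted p from 0.322 to 1.00). Over all genes tested, 0.736% passed, 0.493% with higher and 0.244% with lower signal in Irf4-/- cells. At an unadjusted p under 0.05 a single gene of the 42, E2f2, passed, where 11.4% of all genes did. The differences were small and mostly negative. Of the 42 genes, 36 had a negative difference, where 53.3% of all genes did, and with median scaling 41 had one, where 69.3% of all genes did. The median was -0.19, or 1.14-fold lower in Irf4-/- cells, with quartiles of -0.26 and -0.09, and the range was -0.57 to 0.13. Over all genes the median was -0.02 with quartiles of -0.20 and 0.16. The 42 differences lay closer together than those of genes at large, with a width between quartiles of 0.17 against 0.36. All but E2f2 lay between -0.4 and 0.2, a range drawn around these differences that held 68.0% of all genes. All 42 were above background on all arrays, as were 18563 of the 20505 genes. In cells taken in bulk, fewer replicating cells and less of each transcript per cell cannot be told apart.

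**Figure D1:**
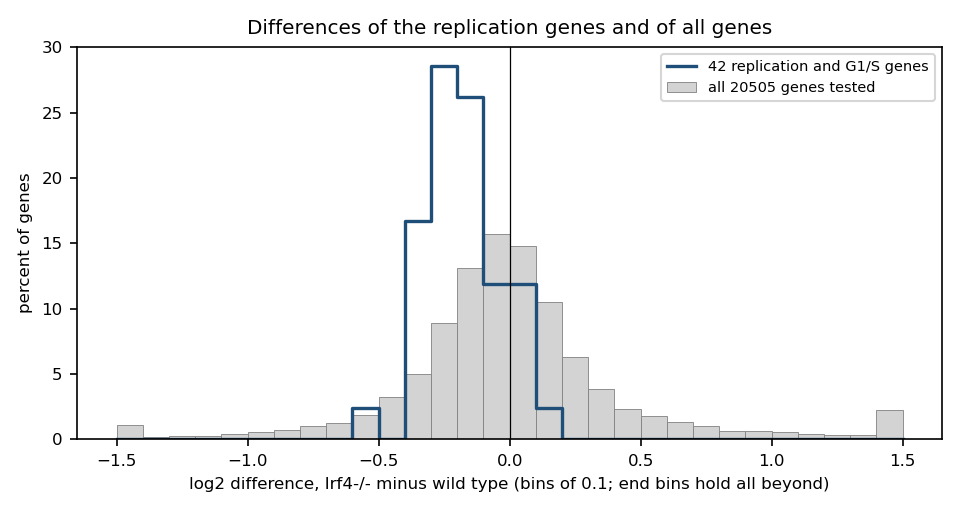
Log2 difference between genotypes (x axis, Irf4-/- minus wild type, in bins of 0.1, the end bins holding everything beyond) against the percent of genes in each bin (y axis), for all 20505 genes tested (grey bars) and the 42 replication and G1/S genes (blue line). The blue line peaks at 28.6% between -0.3 and -0.2, while the grey bars peak at 15.7% between -0.1 and 0.

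The precision of each difference limits what these values show. The SE of the 42 genes lay between 0.17 and 0.25, with a median of 0.20, which equalled the median over all genes. The 95% intervals reached from -1.03 to 0.69, and 1 of the 42, that of E2f2, did not include 0. In this fit the smallest difference called anywhere on the array among genes above background on all arrays was 2.84-fold. That size depends on the variance model. With trended, robust variances Irf4 was called at -0.75 (limma, adjusted p = 0.0258), and still none of the 42 genes. In the main fit, with 2 arrays per genotype, a difference of the size seen in these genes was called for no gene on the array. The missed threshold does not show that the levels were equal.

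**Figure D2:**
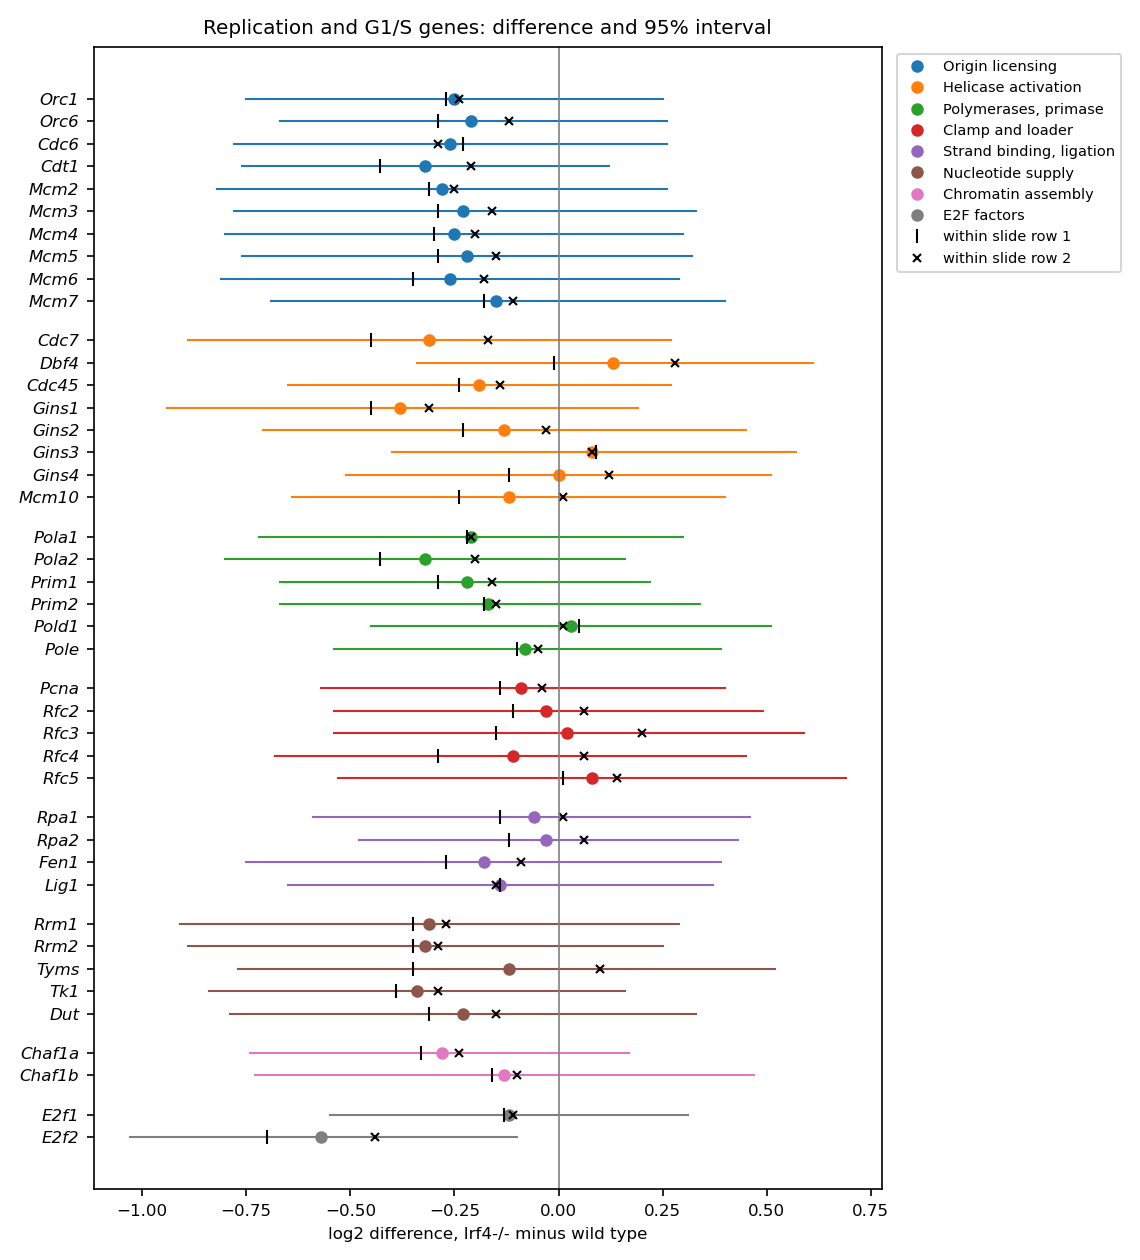
Log2 difference between genotypes (x axis, Irf4-/- minus wild type) of each of the 42 genes, grouped by the role of the product. Dots are the differences over all 4 arrays, horizontal lines their 95% intervals from limma, vertical ticks the difference within slide row 1 and crosses that within slide row 2. The interval of E2f2 is the only one that lies wholly below 0.

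The arrays of 1 genotype differed from each other in these genes by about as much as the genotypes did. The labels do not number the replicates, and the numbers used here follow the order of the samples. They do not mark a shared experiment. Replicate 1 lay in slide row 1 and replicate 2 in slide row 2 for both genotypes, so that replicate number and row cannot be told apart. In wild type, 41 of the 42 genes had more signal on replicate 1 than on replicate 2, with a median gap of 0.30. Cdc7 was the exception. Of all genes, 53.8% had more signal on wild-type replicate 1, and their median gap was 0.03. In Irf4-/- cells, 38 of the 42 had more signal on replicate 1, with a median gap of 0.20, where 58.7% of all genes did, with a median gap of 0.07. The gap between the wild-type arrays was larger than the difference between genotypes for 32 of the 42 genes, where this held for 11475 of the 20505 genes tested. Signal was highest on wild-type replicate 1 for 37 genes, where this held for 27.5% of all genes, and lowest on Irf4-/- replicate 2 for 27, where it held for 33.9%. The summed signals of the T-cell, B-cell and NK-cell markers given above were also higher on replicate 1 than on replicate 2 in both genotypes. The other marker sums were not. Those of the myeloid and dendritic markers and of the CD8 genes were lower on replicate 1 in wild type. That of the erythroid and platelet markers was lower on replicate 1 in Irf4-/-.

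Relative to each gene's mean over the 4 arrays, the median of the 42 genes was 0.23 and -0.06 on the wild-type arrays and 0.01 and -0.17 on the Irf4-/- arrays. Wild-type replicate 2 thus lay below Irf4-/- replicate 1. Compared within a slide row, 39 of the 42 genes were lower in Irf4-/- in row 1 (median -0.25) and 30 in row 2 (median -0.14). Of all genes tested, 49.3% were lower in row 1 and 54.9% in row 2. In both rows 30 of the 42 were lower, where 33.5% of all genes were. Without wild-type replicate 1 the median difference was -0.04 and 24 of the 42 genes were negative, where 50.5% of all genes were. Without wild-type replicate 2 the median was -0.33, without Irf4-/- replicate 2 it was -0.09, and without Irf4-/- replicate 1 it was -0.27. The size of the median therefore rests on which arrays are used, while its sign was negative in all 4 of these subsets. Gene by gene, leaving out 1 array moved the difference by over 1.5 times for 39 of the 42 genes, all but Cdt1, Chaf1a and E2f2.

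**Figure D3:**
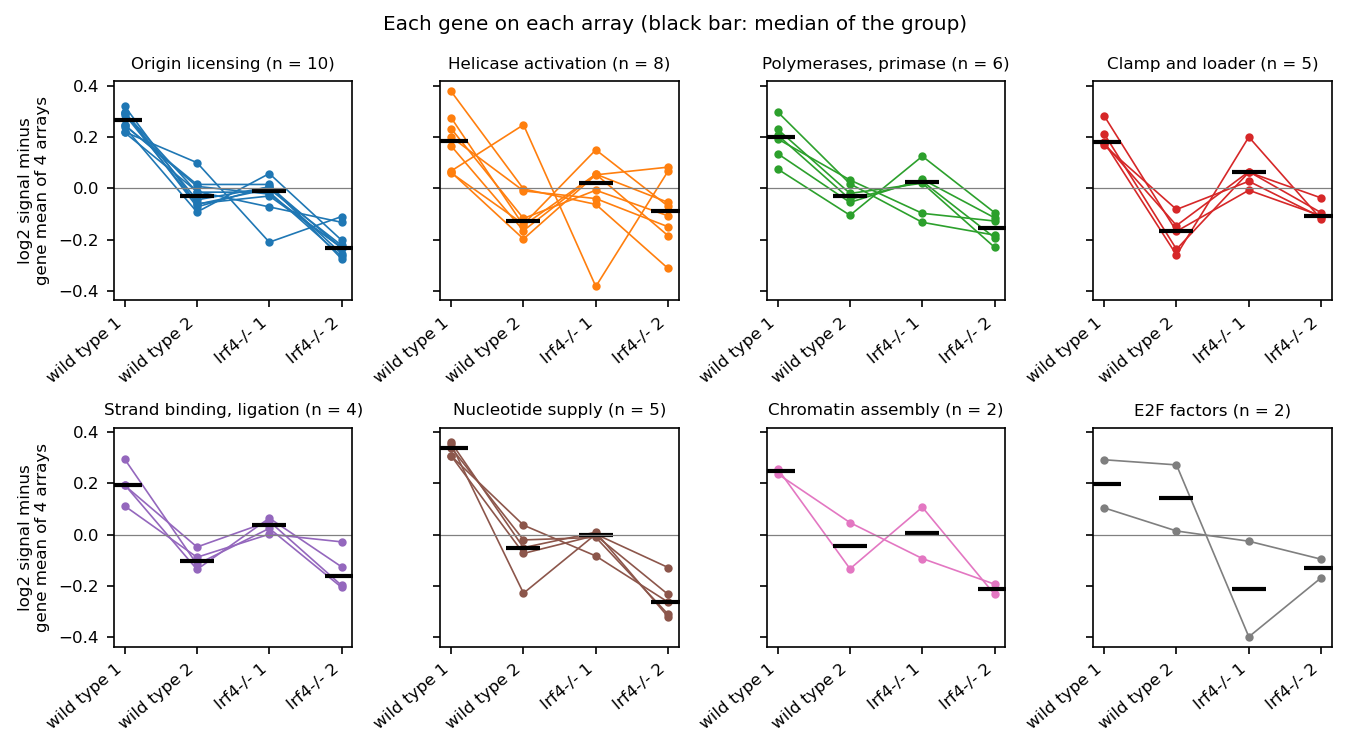
Log2 signal of each gene minus that gene's mean over the 4 arrays (y axis) on each array (x axis), in 1 panel per role. Dots are genes, thin lines join the dots of 1 gene and black bars are the median of the role. Wild-type replicate 1 has the highest median in each of the 8 panels, and in 7 of them, all but that of the E2F factors, Irf4-/- replicate 1 lies above wild-type replicate 2.

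In 12 of the 42 genes both Irf4-/- arrays lay below both wild-type arrays, where this held for 21.3% of all genes. They were Orc1, Orc6, Cdc6 and Cdt1 of licensing, Cdc45 and Gins1 of helicase activation, Pola2, Prim1, Tk1, Chaf1a, E2f1 and E2f2. The space between the groups was narrow for most of them, below 0.01 for Cdc6 and 0.03 for Orc1 and Cdc45, and widest for E2f2, at 0.44. No gene of the 42 had both Irf4-/- arrays above both wild-type arrays, where 17.9% of all genes did. The groups overlapped for the other 30. Leaving out 1 array loosens this criterion for every gene. The count of the 42 was then 13 without wild-type replicate 1 (34.6% of all genes), 37 without wild-type replicate 2 (37.4%), 29 without Irf4-/- replicate 1 (43.0%) and 13 without Irf4-/- replicate 2 (33.1%).

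Origin licensing included the genes of the origin recognition complex (Orc1, Orc6), the helicase loaders Cdc6 and Cdt1 and all 6 subunits of the Mcm2 to Mcm7 helicase. All 10 differences were negative, and they lay close together, from -0.32 to -0.15 with a median of -0.25 (-0.29 and -0.19 by slide row). None passed the test. Cdt1, which brings the helicase to origins, had the largest difference. Its signal was 5.27 and 5.15 in wild type and 4.84 and 4.94 in Irf4-/-, the groups being apart by 0.21. The difference was -0.32 ± 0.17 (SE), or 1.25-fold lower (limma, adjusted p = 0.628). Mcm7 had the smallest, with 6.75 and 6.42 in wild type and 6.57 and 6.31 in Irf4-/-. Its groups overlapped, and its difference of -0.15 ± 0.21 was less than the gap of 0.33 between the wild-type arrays (limma, adjusted p = 0.935). The 6 helicase subunits differed by -0.28 (Mcm2), -0.23 (Mcm3), -0.25 (Mcm4), -0.22 (Mcm5), -0.26 (Mcm6) and -0.15 (Mcm7), and none of the 6 separated the genotypes. Mcm6 signal, for example, was 7.86 and 7.48 in wild type and 7.51 and 7.31 in Irf4-/-. The other 3 loading factors, Orc1, Orc6 and Cdc6, differed by -0.25, -0.21 and -0.26. Without wild-type replicate 1 the median of the licensing genes was -0.08.

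Because many of these promoters are bound by E2F factors in cycling cells, promoter sequences were searched for E2F-like letters. RefSeq promoters of assembly GRCm38.p6, 250 bases before to 50 after the start of the gene, matched 35 of the 42 genes. The letters TTTCGCGC, TTTCCCGC, TTTGGCGC or TTTGCCGC, read on both strands, were in 13 of the 35 (37.1%), where 2.60% of all 27025 promoters and 4.62% of the 10342 promoters of tested genes held them. These were Cdc6, Cdt1, Mcm3, Mcm5, Mcm6, Mcm7, Orc1, Gins3, Pola1, Pold1, Rfc3, Lig1 and E2f2. For 8 of them a match lay before the start, and the stretch around it is given below, 5′ to 3′ on the strand of the gene, with matches in capitals. Mcm7 and Rfc3 also hold a match after the start, outside the stretches given. The 5 licensing genes come first, followed by Gins3, Pola1 and Rfc3 from other roles, which differed by 0.08, -0.21 and 0.02.
Orc1: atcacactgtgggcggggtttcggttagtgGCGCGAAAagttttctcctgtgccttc
Cdc6: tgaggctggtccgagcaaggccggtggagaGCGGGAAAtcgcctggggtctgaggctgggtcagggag
Mcm5: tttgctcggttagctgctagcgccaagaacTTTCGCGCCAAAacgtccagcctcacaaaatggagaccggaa
Mcm6: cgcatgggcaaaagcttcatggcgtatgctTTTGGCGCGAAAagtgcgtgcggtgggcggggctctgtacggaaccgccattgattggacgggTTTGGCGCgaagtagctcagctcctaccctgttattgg
Mcm7: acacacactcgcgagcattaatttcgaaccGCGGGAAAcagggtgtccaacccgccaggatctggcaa
Gins3: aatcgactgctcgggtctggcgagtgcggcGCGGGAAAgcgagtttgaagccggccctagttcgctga
Pola1: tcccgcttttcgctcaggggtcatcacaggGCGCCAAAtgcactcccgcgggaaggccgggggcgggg
Rfc3: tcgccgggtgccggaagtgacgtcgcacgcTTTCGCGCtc
These stretches lie in GRCm38.p6 at chr4:108579397-108579453 (plus strand, Orc1), chr11:98907983-98908050 (plus, Cdc6), chr8:75109326-75109397 (plus, Mcm5), chr1:128359715-128359845 (minus, Mcm6), chr5:138172011-138172078 (minus, Mcm7), chr8:95633488-95633555 (plus, Gins3), chrX:93632256-93632323 (minus, Pola1) and chr5:151651209-151651248 (minus, Rfc3). In Mcm5 and in the first run of capitals in Mcm6 a pair of matches overlaps, so that the run can be read on either strand. The 13 genes holding the letters had a median difference of -0.22, from -0.57 (E2f2) to 0.08 (Gins3), and the 22 without them a median of -0.18, from -0.34 to 0.13. The ranges overlapped from -0.34 to 0.08, and the difference between these medians was not tested. The letters are a description of the sequence and do not show that a factor binds there.

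Other promoter letters were searched in the same way. CCAAT, the letters read by the NF-Y complex, was in 20 of the 35 promoters (57.1%, against 42.8% of tested genes), and the GC box GGGCGG in 27 (77.1%, against 64.3%). The letters GAAANNGA, a core of sites for interferon regulatory factors, were in 6 of the 35 (17.1%, against 21.5% of tested genes), those of Chaf1a, E2f2, Gins3, Mcm3, Pola2 and Prim1. TGANTCA, the site of AP-1 factors with which Irf4 can pair, was in none, where 6.43% of tested genes held it. An absent match says only that these letters are not in this window.

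Helicase activation was less uniform. Of its 8 genes 5 were negative, with a median of -0.12 (-0.23 and -0.01 by slide row) and a range of -0.38 to 0.13, and none passed the test. Gins1, a subunit of the GINS complex that joins the helicase to the polymerases, had the largest difference. Its signal was 3.56 and 3.18 in wild type and 3.12 and 2.87 in Irf4-/-, a difference of -0.38 ± 0.22 (SE) or 1.30-fold lower (limma, adjusted p = 0.667). The groups did not overlap, but a second Gins1 probe differed by -0.18. The difference was also -0.18 when wild-type replicate 1 was left out. Of the other subunits of this 4-member complex, Gins2 differed by -0.13, Gins3 by 0.08 and Gins4 by 0.00, the latter pair by -0.02 and -0.11 with median scaling. Gins3 signal was 5.26 and 5.06 in wild type and 5.35 and 5.13 in Irf4-/- (limma, adjusted p = 0.964), and Gins4 signal was 3.85 and 3.52 against 3.74 and 3.63 (adjusted p = 1.00). In both the groups overlapped. The kinase gene Cdc7 and the gene of its activating subunit, Dbf4, differed by -0.31 ± 0.23 and 0.13 ± 0.18. With 1 array left out, the difference lay from -0.54 (without Irf4-/- replicate 2) to -0.08 (without Irf4-/- replicate 1) for Cdc7 and from 0.00 to 0.27 for Dbf4, whose extremes came with wild-type replicates 2 and 1 left out. Dbf4 signal was 0.84 and 0.58 in wild type and 0.83 and 0.86 in Irf4-/-, so that wild-type replicate 2 alone stood low (limma, adjusted p = 0.928). This difference was the largest positive one of the 42 and lay within the spread of the wild-type arrays. Cdc45 and Mcm10, which work at the active helicase, differed by -0.19 and -0.12. Without wild-type replicate 1 the median of these 8 genes was 0.07.

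Of the 6 polymerase and primase genes 5 were negative, with a median of -0.19 (-0.20 and -0.15 by slide row) that was -0.06 without wild-type replicate 1 and -0.07 without Irf4-/- replicate 2. Pola2, the accessory subunit of the polymerase that starts each strand, had signal of -0.98 and -1.26 in wild type and -1.41 and -1.46 in Irf4-/-. The groups did not overlap, and the difference was -0.32 ± 0.19 (limma, adjusted p = 0.675). The other subunits of the same enzyme differed by -0.21 (Pola1, the catalytic subunit), -0.22 (Prim1, the catalytic primase) and -0.17 (Prim2, its partner). The genes of the catalytic subunits of the elongating polymerases lay nearer 0. Pold1, of the lagging-strand polymerase, had signal of 5.02 and 4.84 in wild type and 5.07 and 4.85 in Irf4-/-, a difference of 0.03 ± 0.19 (limma, adjusted p = 0.992) that was -0.08 with median scaling. Pole, of the leading-strand polymerase, differed by -0.08.

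The sliding clamp Pcna and the 4 loader genes measured, Rfc2 to Rfc5, lay nearest to 0 of all roles, with a median of -0.03 (-0.14 and 0.06 by slide row) and a range of -0.11 to 0.08. Pcna signal was 7.56 and 7.31 in wild type and 7.42 and 7.28 in Irf4-/-, with overlapping groups and a difference of -0.09 ± 0.19 (limma, adjusted p = 0.960). For Rfc4 the values were 5.58 and 5.13 against 5.29 and 5.19 (difference -0.11), and for Rfc3 they were 4.61 and 4.16 against 4.46 and 4.36 (difference 0.02, or -0.09 with median scaling). In Rfc4 and Rfc3, as in Rfc2, both Irf4-/- arrays lay between the wild-type arrays. Rfc5 differed by 0.08 ± 0.24 (-0.03 with median scaling), with 5.97 and 5.53 in wild type and 5.99 and 5.67 in Irf4-/-. Without wild-type replicate 1 the median of the 5 genes was 0.13, and without wild-type replicate 2 it was -0.20. The sign of these differences thus depended on which wild-type array was used.

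The genes for strand binding, flap removal and ligation differed little as well, with a median of -0.10 (-0.14 and -0.04 by slide row) over 4 negative differences. Fen1, the nuclease that trims Okazaki fragments, had signal of 5.49 and 5.08 in wild type and 5.22 and 4.99 in Irf4-/-, a difference of -0.18 ± 0.22 (limma, adjusted p = 0.911). Rpa2, a subunit of the complex that coats single-stranded DNA, had 2.66 and 2.46 against 2.55 and 2.52, a difference of -0.03 ± 0.18. Rpa1 differed by -0.06 and the ligase gene Lig1 by -0.14. In all 4 genes the groups overlapped. Without wild-type replicate 1 the median was 0.05.

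The 5 genes of nucleotide supply were all negative, with a median of -0.31 or 1.24-fold lower (-0.35 and -0.27 by slide row), and none passed the test. The subunits of ribonucleotide reductase, Rrm1 and Rrm2, differed by -0.31 and -0.32 with overlapping groups. Tk1, the thymidine salvage kinase, had signal of 5.29 and 5.02 in wild type and 4.90 and 4.72 in Irf4-/-. Its groups did not overlap and its difference was -0.34 ± 0.19 (limma, adjusted p = 0.657), with -0.35 at a second probe. Tyms, which makes thymidylate anew, had 5.71 and 5.13 against 5.36 and 5.23, so that both Irf4-/- arrays lay between the wild-type arrays. Its difference was -0.12 ± 0.25, with -0.35 in slide row 1 and 0.10 in row 2. Dut, which keeps uracil out of DNA, differed by -0.23. Without wild-type replicate 1 the median of the 5 was -0.11.

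The genes of the chromatin assembly factor that deposits histones behind the fork differed by -0.28 (Chaf1a) and -0.13 (Chaf1b). Chaf1a signal was 3.90 and 3.71 in wild type and 3.57 and 3.47 in Irf4-/-, with no overlap (SE 0.18, limma, adjusted p = 0.700). Chaf1b signal was 5.33 and 4.94 against 5.18 and 4.84, and the groups overlapped (adjusted p = 0.951).

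E2f2, one of the activating E2F factors, had the largest difference of the 42 genes. Its signal was 5.35 and 5.33 in wild type and 4.66 and 4.89 in Irf4-/-. Both wild-type arrays were nearly equal, unlike those of most replication genes, and both knockout arrays lay at least 0.44 below them. The difference was -0.57 ± 0.18 (SE), or 1.48-fold lower, with a 95% interval of -1.03 to -0.10. It did not pass over all genes (limma, adjusted p = 0.322), though it was the gene that passed before adjustment. With no array left out, limma's adjusted p for E2f2 lay between 0.0836 (trended, robust variances) and 0.97 (no filter on dim probes). A difference at least as negative was found for 6.08% of all genes. It was -0.70 in slide row 1 and -0.44 in row 2, between -0.68 and -0.45 with any 1 array left out, and -0.69 at a second E2f2 probe. E2f1, another activating member, had signal of 2.99 and 2.90 in wild type and 2.86 and 2.79 in Irf4-/-. The groups did not overlap, but the difference of -0.12 ± 0.17 was smaller than its SE (limma, adjusted p = 0.932).

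**Figure D4:**
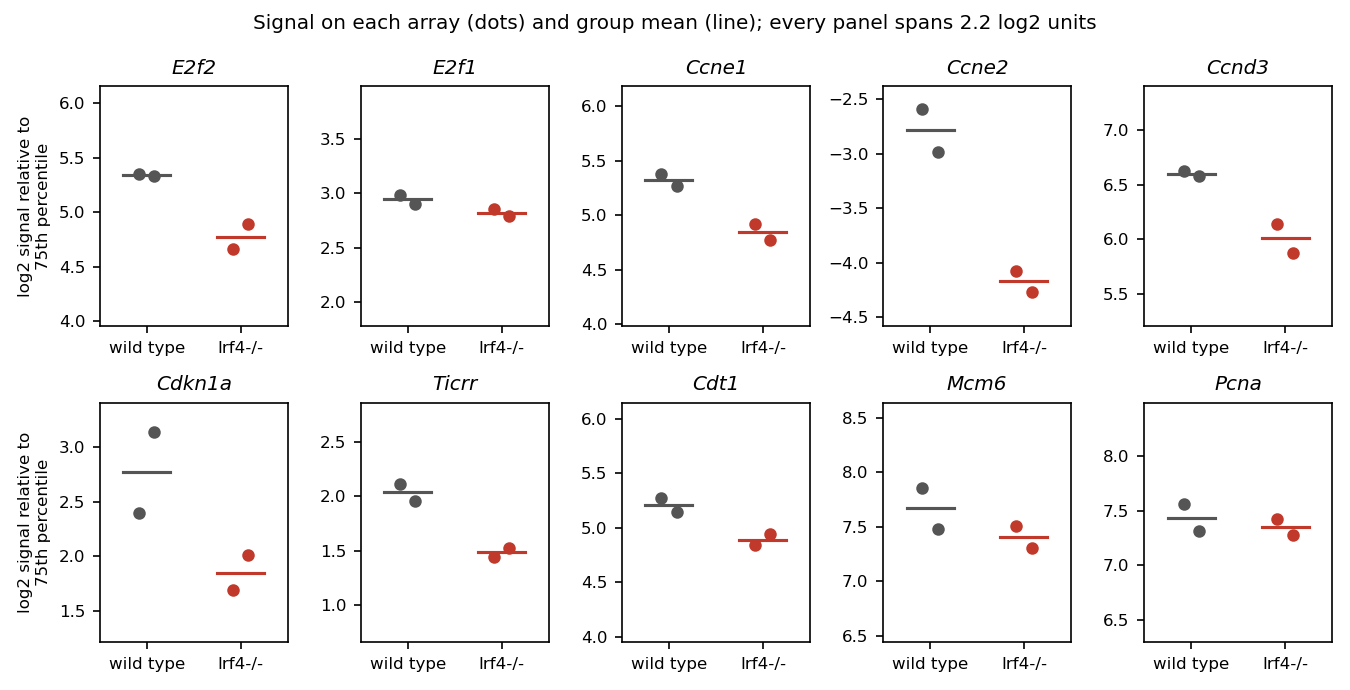
Log2 signal relative to the 75th percentile of the array (y axis) on each array (dots) with the group mean (line), for wild type (grey) and Irf4-/- (red), n = 2 each. Panels show 5 of the 42 genes (E2f2, E2f1, Cdt1, Mcm6 and Pcna) and 5 related genes, each over the same span of log2 units. The groups separate by 0.35 or more for E2f2, the cyclin genes Ccne1, Ccne2 and Ccnd3, the inhibitor gene Cdkn1a and Ticrr. They separate by less for Cdt1 and E2f1, and overlap for Mcm6 and Pcna. The dim Ccne2 probe is not above background on every array.

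Further probes were above background for 17 of the 42 genes, 18 probes in all. In 17 cases the further probe had the sign of the brightest one, and the median gap between the differences was 0.085. Orc1 was the exception, with 0.03 against -0.25, and this gap of 0.28 was the largest. The next largest gaps were those of Gins1, from -0.38 to -0.18, and Mcm6, from -0.26 to -0.09.

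Genes upstream of replication were read next. Of 27 regulators of the G1/S transition 26 were tested. The probe of the cyclin gene Ccnd1 was not well above background on both arrays of either genotype. None passed the test. At an unadjusted p under 0.05, 4 of the 26 passed (Ccnd3, Cdkn1a, Ccne1 and the dim Ccne2), where 11.4% of all genes did. In all, 20 were negative, and the median was -0.17 (-0.26 and -0.03 by slide row). Ccne2, a cyclin that activates Cdk2 at the start of S phase, had signal of -2.59 and -2.98 in wild type and -4.07 and -4.27 in Irf4-/-, a difference of -1.38 ± 0.22 (limma, adjusted p = 0.0811). It was dim, being above background on 1 of 2 knockout arrays, and differed by -0.27 with normexp background correction. Ccne2 entered the test only through its wild-type arrays, where its signal was higher, so its pass is no support for a difference. Ccnd3, the D-type cyclin prominent in lymphocytes, had 6.63 and 6.58 against 6.14 and 5.88, a difference of -0.60 ± 0.18 or 1.51-fold lower (limma, adjusted p = 0.309). Cdkn1a, an inhibitor of cyclin-dependent kinases, had 2.40 and 3.14 against 1.69 and 2.01, a difference of -0.92 ± 0.30 (limma, adjusted p = 0.338) that was -0.55 without wild-type replicate 2. In each of these 3 genes each Irf4-/- array was lower than each wild-type array. The next largest difference, that of the repressive E2F gene E2f4, came from a dim probe with overlapping groups, at -3.37 and -2.92 against -3.15 and -4.11 (-0.49 ± 0.38, limma, adjusted p = 0.797).

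Of 43 other genes of the replication machinery all were tested and none passed. At an unadjusted p under 0.05, 2 of the 43 passed (Ticrr and Dna2), where 11.4% of all genes did. In all, 36 were negative, and the median was -0.13 (-0.20 and -0.09 by slide row). Ticrr, which helps to fire origins with Topbp1, had signal of 2.11 and 1.96 in wild type and 1.44 and 1.53 in Irf4-/-, with no overlap. Its difference was -0.55 ± 0.17, or 1.47-fold lower (limma, adjusted p = 0.314). The nuclease-helicase gene Dna2 had -0.82 and -0.89 against -1.36 and -1.23, a difference of -0.44. The clamp unloader gene Atad5 had 1.14 and 1.13 against 0.73 and 0.74, a difference of -0.40 with replicates of both genotypes nearly equal. Uhrf1, which carries DNA methylation through replication, had 6.17 and 5.87 against 5.77 and 5.49, a difference of -0.39 that was -0.24 without wild-type replicate 1 and -0.25 without Irf4-/- replicate 2 or over all its probes. Adjusted p lay between 0.314 and 0.626 for these 4 genes (limma). In all 4 each Irf4-/- array was lower than each wild-type array, as in 20 of the 43, where 21.3% of all genes did so.

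Of 30 genes of mitosis, listed for comparison, none passed the test. At an unadjusted p under 0.05, 0 passed, where 11.4% of all genes did. Of these 30, 24 were negative and the median was -0.22 (-0.34 and -0.07 by slide row). In 19 of the 30 both Irf4-/- arrays were lower than both wild-type arrays, and in 1, Cenpa, both were higher, where 21.3% and 17.9% of all genes did so. The proliferation marker Mki67 had signal of 6.07 and 5.77 in wild type and 5.54 and 5.45 in Irf4-/-, a difference of -0.42. The checkpoint kinase gene Bub1 had 2.84 and 2.52 against 2.31 and 2.28 (-0.39), and the condensin gene Ncapd2 had 5.97 and 5.93 against 5.57 and 5.57 (-0.38). Cenpa, the centromeric histone, had 4.14 and 4.02 against 4.37 and 4.53, a difference of 0.37 with both Irf4-/- arrays higher. Adjusted p lay between 0.506 and 0.588 for these 4 genes (limma). Between replicates the mitosis genes shared the wild-type gap and not that of Irf4-/-. All 30 had more signal on wild-type replicate 1 than on replicate 2, with a median gap of 0.22. In Irf4-/- cells 12 of 30 did, with a median gap of -0.02, beside the 38 of 42 replication genes. The difference between the lists was not tested.

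**Figure D5:**
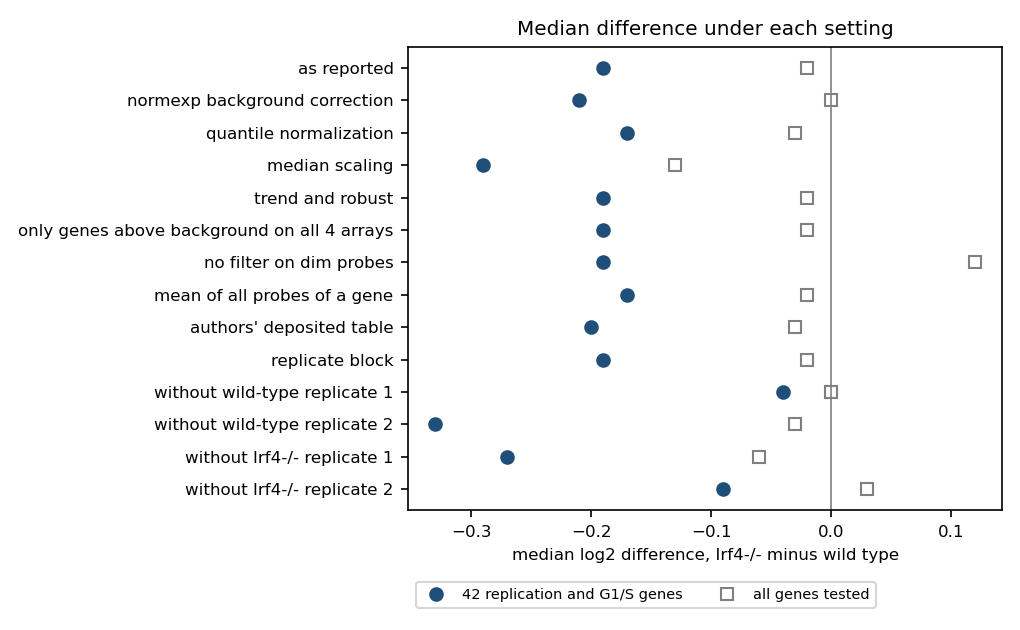
Median log2 difference between genotypes (x axis, Irf4-/- minus wild type) under each processing setting (y axis), for the 42 replication and G1/S genes (filled circles) and all genes tested (open squares). The median of the 42 genes stays below 0 under every setting shown, from -0.33 to -0.04, and below that of all genes.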

How the data were processed

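Transcripts were measured on 4 one-colour Agilent arrays (62976 spots), all on 1 slide. Per the file headers, the authors extracted spot intensity with Feature Extraction 11.0.1.1 (9.1 in the submitters' processing notes). The deposited intensity used is the background-subtracted processed signal, and 25677 to 28725 of 56605 non-control probes were well above background per array. The number of arrays limits the precision. The authors' deposited table of log2 values matched differences of the scanner signals (r = 1.00) and was centred per probe, with column medians of -0.17, 0.10, -0.11 and 0.12. Centring removed the level of each probe and the origin of small constant shifts stays unknown, so that table gave only alternative differences.

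From each log2 processed signal the 75th percentile of non-control spots on that array was subtracted. Accessions of 32994 probes matched 22911 symbols of a RefSeq table (GRCm38.p6), and 23611 probes did not match. A gene was tested if its brightest probe exceeded background well on each array of 1 or both genotypes. The test was that of limma 3.58.1 (lmFit, eBayes; R 4.3.3), adjusted over 20505 genes by Benjamini-Hochberg at a threshold of 0.05. The code was tested on simulated data. Values on every array are given for the largest and smallest absolute difference of each role, every gene with a difference above 0, and the 4 largest of each related list. Mcm6, Pcna and Ccne1 were added after their values were seen. The genes, lists and tests were chosen with earlier results of these data known. Alternatives were normexp (offset 50, on the median signal, as no mean signal was used here), quantile and median scaling, trend and robust eBayes, other filters, the mean of all probes, the deposited table, replicate number as a block, and leaving out each array. Slide column (1 for wild type, 3 and 2 for Irf4-/-) and genotype cannot be told apart.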

Additional observations from a re-analysis of the deposited data

How the results depend on the processing

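None of the 42 genes passed under any of the 13 alternatives. Their median difference lay between -0.33 and -0.04, and 24 to 41 were negative, both extremes with 1 wild-type array left out. The 24 came without wild-type replicate 1, where 50.5% of all genes were negative. The 41 came without replicate 2, where 54.4% were. The count with both Irf4-/- arrays below both wild-type arrays was 24 with quantile normalization (24.0% of all genes), 7 with median scaling (24.5%) and 13 to 37 with 1 array left out (33.1% to 43.0%). Median scaling moved the median of all genes to -0.13 and that of the 42 to -0.29, which is -0.16 relative to it. Its negative differences were 69.3% of all genes. Genes called over the whole array numbered 760 with normexp (461 higher), 1 with quantile normalization (0 higher), 1042 with median scaling (594 higher), 797 with trend and robust settings, 260 from the deposited table and 0 without a filter (limma, 2099 at an unadjusted p under 0.05). With the replicate block, which equals slide row, limma called 0 (3195 unadjusted). Same-numbered arrays deviated together at r = 0.348 across genes, which with 2 pairs does not establish pairing. With 1 array left out, the count was 0 to 487 (limma, 0 without wild-type replicate 1, with 1864 unadjusted, or replicate 2, with 1678). Irf4 differed by -0.72 with normexp (limma, adjusted p = 0.0267) and by -0.75 with trended, robust variances (limma, adjusted p = 0.0258). Its difference was -0.56 as the mean of all its probes (limma, adjusted p = 0.335) and -0.89 to -0.60 with 1 array left out. Of the G1/S regulators 1 was called with median scaling, Ccne2 (-1.49, limma, adjusted p = 0.00114, against 0.0686 to 0.66 under the other alternatives that test it). Its probe is above background on 1 of 2 Irf4-/- arrays, and the filter for all 4 arrays removes it. Signs turned with normexp for Gins4 (-0.02), Rfc3 (-0.01) and E2f4 (0.02), with median scaling for Gins3 (-0.02), Gins4 (-0.11), Pold1 (-0.08), Rfc3 (-0.09) and Rfc5 (-0.03), and in the deposited table for Gins4 (-0.01). With 1 array left out, signs turned and differences ranged from -0.31 to 0.02 for Mcm7, -0.34 to 0.08 for Gins2, -0.29 to 0.06 for Mcm10, -0.18 to 0.02 for Pole, -0.21 to 0.04 for Pcna, -0.19 to 0.13 for Rfc2 and -0.34 to 0.11 for Rfc4. The ranges were -0.23 to 0.10 for Rpa1, -0.13 to 0.07 for Rpa2, -0.39 to 0.02 for Fen1, -0.41 to 0.17 for Tyms, -0.32 to 0.07 for Chaf1b, -0.03 to 0.19 for Gins3, -0.17 to 0.17 for Gins4, -0.08 to 0.14 for Pold1, -0.20 to 0.25 for Rfc3 and -0.14 to 0.30 for Rfc5. The causes were not tested.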
